A study of Mus musculus with 8 samples.

Results

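Lipid droplet genes of the liver were examined in db/db mice, which lack a working leptin receptor and store large amounts of triglyceride in their hepatocytes. The genes were chosen by name: the perilipins Plin2, Plin4 and Plin5, the CIDE genes Cidea, Cideb and Cidec, the triglyceride enzymes Mogat1 and Pnpla2, the lipase inhibitor G0s2, and the droplet-resident enzyme Hsd17b13. All 10 were among the 41388 counted features and all 10 passed the filter on low counts. Liver RNA was sequenced from 8 male db/db littermates on a C57B/6J background, randomised at 5 weeks of age and sampled at 10 weeks. The AdGFP group (4 mice) received an adenovirus encoding green fluorescent protein through the tail vein, and the AdNAMPT group (4 mice) received one encoding NAMPT, the rate-limiting enzyme of NAD salvage. Every mouse therefore carried both the db/db genotype and an adenovirus, so neither lean nor uninjected liver was compared. The genotype label reads control or NAMPT overexpression, and db/db comes from the sample titles. Expression is given as CPM, the count of a gene scaled to a common library total, or as RPKM, which is also divided by exon length, where genes are compared with each other.

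Libraries held between 12006713 and 19879814 counts, the fewest in AdNAMPT mouse 1 and the most in AdNAMPT mouse 3. The hepatocyte markers Alb, Ttr and Apoa1 were high in every library, with Alb at 76700 to 99420 CPM. Nampt itself was at 102 to 153 CPM in AdGFP and 120.5 to 178 CPM in AdNAMPT, with a log2 fold change of 0.08 (SE 0.15, limma adjusted p 0.915). The transferred gene did not separate the groups, and AdNAMPT below means the libraries labelled AdNAMPT. AdNAMPT mouse 1 stood apart on the first principal component of the 500 most variable genes (-31.7, against -2.6 to 11.1 in the other mice) and had the lowest weight in the model, 0.440. AdNAMPT mouse 4 held 21.3 CPM of Xist, which marks female cells, against at most 0.50 CPM in the other 7 libraries. The same library held 112 CPM of the Y-linked Ddx3y, beside 97.0 to 136 CPM in the other 7. Values without each of these mice are given beside the group comparison.

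A lipid droplet is a core of triglyceride and sterol ester inside a phospholipid monolayer. Perilipins coat the droplet and control which lipases reach the core, CIDE proteins move lipid between droplets and onto lipoproteins, and Mogat1 adds a fatty acid to monoacylglycerol on the way to triglyceride. Pnpla2 (ATGL) is the lipase that begins triglyceride breakdown, and G0s2 binds and inhibits it. Cidea and Cidec are scarce in lean liver and are known as markers of the steatotic liver, where several of these genes respond to PPAR-gamma and PPAR-alpha. Hsd17b13 sits on hepatocyte droplets, and loss-of-function alleles in humans are linked with milder liver disease.

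Promoter sequence is shown for 4 genes whose levels tracked each other in pairs across the mice, Plin2 with Mogat1 and Plin4 with Plin5. The stretches come from the RefSeq promoter table (GRCm38.p6), are written 5′ to 3′ on the strand of the gene, and stop 1 base before the 5′ end of the deposited gene model. Capitals mark AGGTCA, the half-site bound by PPAR-RXR and other nuclear receptors, on either strand (TGACCT is the same half-site read on the other strand). The Plin2 stretch lies at chr4:86670061-86670309 (minus strand), that of Mogat1 at chr1:78510810-78510990 (plus strand), Plin4 at chr17:56109804-56110032 (minus strand) and Plin5 at chr17:56117597-56117798 (minus strand).
Plin2: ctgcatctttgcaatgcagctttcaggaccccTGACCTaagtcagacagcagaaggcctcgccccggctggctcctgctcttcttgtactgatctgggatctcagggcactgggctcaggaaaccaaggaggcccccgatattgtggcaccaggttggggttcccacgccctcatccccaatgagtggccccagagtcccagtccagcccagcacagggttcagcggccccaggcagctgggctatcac
Mogat1: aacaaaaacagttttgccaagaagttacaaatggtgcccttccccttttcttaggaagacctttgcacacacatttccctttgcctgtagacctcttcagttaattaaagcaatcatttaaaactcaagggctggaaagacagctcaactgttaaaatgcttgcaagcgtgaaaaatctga
Plin4: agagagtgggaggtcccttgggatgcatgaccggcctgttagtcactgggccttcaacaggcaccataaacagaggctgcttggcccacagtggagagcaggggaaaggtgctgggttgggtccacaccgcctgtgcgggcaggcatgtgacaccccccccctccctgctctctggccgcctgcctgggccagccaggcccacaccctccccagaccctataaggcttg
Plin5: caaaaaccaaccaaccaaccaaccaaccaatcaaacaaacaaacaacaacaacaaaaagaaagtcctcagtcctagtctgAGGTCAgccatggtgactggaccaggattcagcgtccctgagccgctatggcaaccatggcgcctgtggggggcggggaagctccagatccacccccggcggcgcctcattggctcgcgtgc
The Plin2 half-site was centred 214 bases before the gene start and the Plin5 half-site 119 bases before it. The Mogat1 and Plin4 stretches held none. In windows of 250 bases before the RefSeq start, both strands searched, AGGTCA was found for 3 of the 9 lipid droplet genes with a window (Plin2, Plin5 and Hsd17b13), against 14.0% of 32851 windows. The complete direct repeat, 2 copies of AGGTCA with 1 base between them, was found in 0 of the 9 and in 0.0335% of all windows. CACGTG, an E-box, was found in 0 of the 9 against 6.02% of all windows, and TATAAA in Cideb alone against 12.4%. A match is a string of letters and not a measured binding site.

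Per length of exon, G0s2 was the most abundant of the genes, at 273 RPKM ± 181 (SD over 8 mice), above Plin2 in each mouse although their ranges overlapped. Plin2 (143 ± 45.5 RPKM) and Hsd17b13 (141 ± 21.9 RPKM) followed and did not differ beyond their spread: Plin2 exceeded Hsd17b13 in 6 of 8 mice. Cideb (29.8 ± 3.39 RPKM), Plin5 (22.6 ± 9.59 RPKM) and Pnpla2 (11.6 ± 1.87 RPKM) formed a middle tier, in which the ranges of neighbouring genes overlapped, and Hsd17b13 exceeded Cideb in every mouse without overlap. The low tier held Cidec (4.12 ± 2.90 RPKM), Mogat1 (2.79 ± 1.35 RPKM), Plin4 (1.87 ± 1.06 RPKM) and Cidea (1.35 ± 1.27 RPKM). The ranges of these 4 genes overlapped from one to the next, and none of them reached the range of Pnpla2. Plin2 was thus the main perilipin transcript of these livers and Cideb the main CIDE transcript.

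To ask whether NAMPT delivery changed the droplet genes, the AdNAMPT libraries were compared with the AdGFP libraries by limma across 12270 genes. None of the 10 genes passed an adjusted p of 0.05 (0 of 10), where 34 of all tested genes did (0.277%). By unadjusted p under 0.05, 2 of 10 passed (Cideb, lower, and Hsd17b13, higher), where 9.69% of all genes did. Complete separation of the 2 groups was seen for 1 of the 10, Cideb, where 4.79% of all genes were separated. Estimates were above 0 for 8 of the 10 genes, where 50.4% of all tested genes were, and below 0 for Cideb and Pnpla2. Several of the 10 varied together across mice, so their signs are not independent. The median log2 fold change of the 10 was 0.37, beside 0.00 over all tested genes (quartiles -0.10 and 0.11). DESeq2 and edgeR's quasi-likelihood and exact tests also called 0 of 10, where they called 0.612%, 0.269% and 0.538% of all genes. Each gave an unadjusted p under 0.05 for 1 of 10, where 6.85%, 8.0% and 6.76% of all genes did, a share near that of the lipid droplet genes.

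Leaving out the mice that stood apart changed the unadjusted counts. Without AdNAMPT mouse 1, 5 of 10 genes had an unadjusted limma p under 0.05 (Cidea, Cideb, Cidec, Mogat1 and Hsd17b13), where 10.5% of all genes did, the median estimate was 0.46, and 0 passed the adjusted threshold. Without AdNAMPT mouse 4, 2 of 10 did (Cideb and Plin4), where 11.3% of all genes did, with a median of 0.31 and 0 past the adjusted threshold. Without AdGFP mouse 1 the count was 1 (Cideb), where 7.84% of all genes passed, and without AdGFP mouse 3 it was 4 (Cideb, Plin4, Plin5 and Hsd17b13), where 9.03% did. Without AdGFP mouse 2 or AdNAMPT mouse 2 it was 3, where 9.84% and 10.4% of all genes did. Without AdGFP mouse 4 or AdNAMPT mouse 3 it was 2, where 7.78% and 12.1% did. In each of the 8 fits 0 of the 10 passed the adjusted threshold, where 0.224% (without AdGFP mouse 4) to 0.305% (without AdNAMPT mouse 1) of all genes did, and 0.272% without AdGFP mouse 1 or mouse 3. The median was lowest, 0.17, without AdNAMPT mouse 3, which had the highest level of 5 of the 10 genes. In bulk liver, a change in the share of steatotic hepatocytes and a change in RNA per hepatocyte cannot be told apart.

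**Figure D1:**
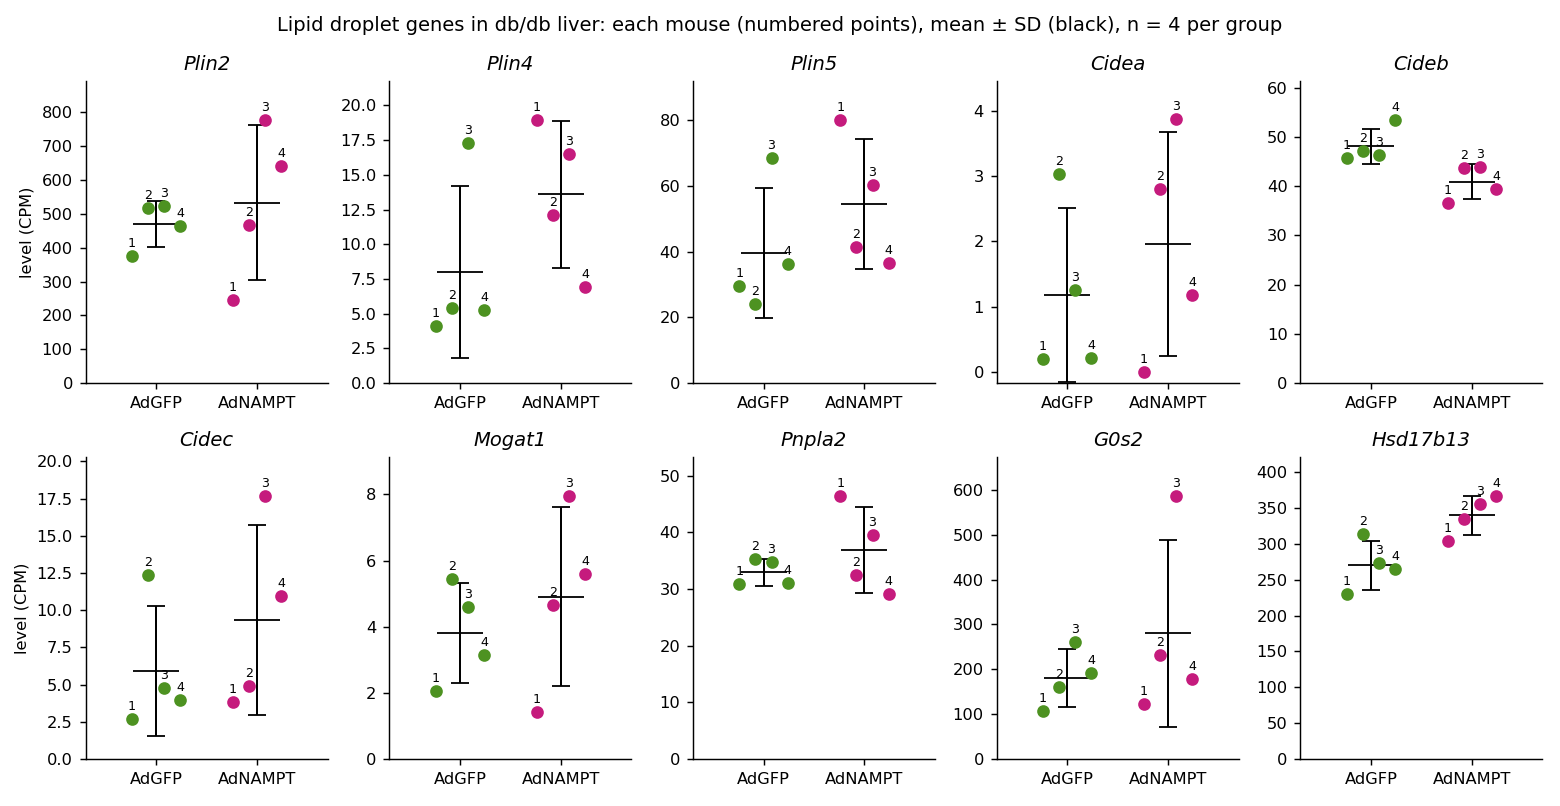
Level of each lipid droplet gene (vertical axis, CPM) in each mouse, with points numbered by mouse within its group (green, AdGFP; magenta, AdNAMPT) and black bars giving mean ± SD of 4 mice. Only the Cideb groups are separated; AdNAMPT mouse 3 is the highest mouse for Cidea, Cidec, Plin2, G0s2 and Mogat1, and AdNAMPT mouse 1 the highest for Plin4, Plin5 and Pnpla2.

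Plin2 (ENSMUSG00000028494, GRCm38 chromosome 4, 86648386 to 86670060) encodes the general perilipin of hepatocyte droplets. It was at 376, 518, 524 and 463 CPM in AdGFP mice 1 to 4 and at 247, 467, 776 and 640.0 CPM in AdNAMPT mice 1 to 4. The AdNAMPT group held both the lowest and the highest mouse, so the AdGFP values lay wholly inside the AdNAMPT range. Means were 470.4 ± 69.0 and 533 ± 228 CPM (SD, 4 mice each), and the log2 fold change was 0.10 with SE 0.23 (limma adjusted p 0.928). Without AdNAMPT mouse 3 the estimate was -0.12 and without AdNAMPT mouse 1 it was 0.34, so its direction rested on single mice.

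Plin4 (ENSMUSG00000002831, chromosome 17, 56100591 to 56109803) encodes a perilipin of small nascent droplets that is most abundant in fat. Its level was 4.10, 5.44, 17.3 and 5.26 CPM in AdGFP mice 1 to 4. In AdNAMPT mice 1 to 4 it was 18.9, 12.1, 16.5 and 6.90 CPM. AdGFP mouse 3 was at more than 3 times the level of the next AdGFP mouse and inside the AdNAMPT range, and the other 3 AdGFP mice were below every AdNAMPT mouse. The log2 fold change was 0.68 with a 95% interval of -0.25 to 1.60 (limma adjusted p 0.647). Without AdGFP mouse 3 it was 1.21, at an unadjusted limma p of 0.00297 and an adjusted p of 0.339.

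Plin5 (ENSMUSG00000011305, chromosome 17, 56111601 to 56117596), the perilipin that links droplets to mitochondria in oxidative tissue, lies upstream of Plin4 on the same strand, with 1797 bases between its 3′ end and the 5′ end of Plin4. AdGFP mice 1 to 4 held 29.5, 24.1, 68.4 and 36.2 CPM, and AdNAMPT mice 1 to 4 held 80.0, 41.5, 60.3 and 36.6 CPM. The same 3 mice, AdNAMPT 1, AdGFP 3 and AdNAMPT 3, were the highest for Plin4 and for Plin5, and the groups overlapped for both. The estimate for Plin5 was 0.23 with a 95% interval of -0.41 to 0.87 (limma adjusted p 0.853).

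Cidea (ENSMUSG00000024526) encodes a droplet fusion protein that is also made in brown fat. It was counted with 3, 43, 21 and 3 reads in AdGFP mice 1 to 4, or 0.205, 3.04, 1.25 and 0.219 CPM. AdNAMPT mice 1 to 4 had 0, 41, 77 and 20 reads, or 0, 2.80, 3.87 and 1.18 CPM, and the 0 of mouse 1 allows a level of up to 0.250 CPM. Each group thus held mice at or near the detection limit of 3 reads beside mice more than 10 times higher. The estimate of 1.39 carried a 95% interval of -1.01 to 3.80 (limma adjusted p 0.733), the widest of the 10 genes. It was 0.46 without sample weights and 1.91 without AdNAMPT mouse 1.

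Cideb (ENSMUSG00000022219, chromosome 14, 55754045 to 55758458) acts in the lipidation of very low density lipoprotein. AdGFP mice 1 to 4 were at 45.7, 47.1, 46.4 and 53.3 CPM, and AdNAMPT mice 1 to 4 at 36.6, 43.7, 43.9 and 39.5 CPM. Every AdNAMPT mouse was below every AdGFP mouse. Means were 48.1 ± 3.52 and 40.9 ± 3.53 CPM (SD, 4 mice each), a ratio of 0.813 in the fitted model with a 95% interval of 0.719 to 0.919. The log2 fold change of -0.30 (SE 0.08) had an unadjusted limma p of 0.00344 and an adjusted p of 0.300, and the estimate was negative in all 18 alternative fits, between -0.34 and -0.21. Of its 1493 exonic bases, 1141 (76.4%) are shared with Nop9 on the opposite strand. Whether counting used strand is not given in the sources used here, so the level of Cideb per length is less certain than those of the other genes. Nop9 was at 12.7 to 14.5 CPM in AdGFP and 13.4 to 17.5 CPM in AdNAMPT, with overlapping groups, and its part in the Cideb difference was not tested.

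Cidec (ENSMUSG00000030278, chromosome 6, 113424634 to 113435760), also called Fsp27, drives the growth of large droplets. It was at 2.67, 12.4, 4.78 and 3.95 CPM in AdGFP mice 1 to 4 and at 3.83, 4.92, 17.7 and 10.96 CPM in AdNAMPT mice 1 to 4. The second highest mouse of all was AdGFP mouse 2, while AdNAMPT mice 1 and 2 were level with the remaining AdGFP mice. The log2 fold change was 0.85 with a 95% interval of -0.22 to 1.92 (limma adjusted p 0.629). Leaving out AdNAMPT mouse 3 brought it to 0.23 and leaving out AdNAMPT mouse 2 brought it to 1.41.

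Mogat1 (ENSMUSG00000012187, chromosome 1, 78510991 to 78538173) is the monoacylglycerol acyltransferase that is induced in steatotic mouse liver. Levels were 2.05, 5.44, 4.60 and 3.14 CPM in AdGFP mice 1 to 4 and 1.42, 4.64, 7.95 and 5.60 CPM in AdNAMPT mice 1 to 4. As for Plin2, the AdNAMPT group held both extremes. The estimate was 0.49 with a 95% interval of -0.36 to 1.33 (limma adjusted p 0.734). An antisense gene, BC035947, shares 12.8% of the Mogat1 exonic bases.

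Pnpla2 (ENSMUSG00000025509, chromosome 7, 141455198 to 141460743) and its inhibitor G0s2 (ENSMUSG00000009633, chromosome 1, 193272161 to 193273188) behaved differently between mice. Pnpla2 had the lowest SD of log2 TMM-scaled CPM among the 10 genes, although Cideb spanned a narrower fold on the CPM scale. Pnpla2 was at 30.8, 35.2, 34.7 and 31.0 CPM in AdGFP and 46.4, 32.5, 39.5 and 29.1 CPM in AdNAMPT, mice 1 to 4 each. AdNAMPT mouse 1 was the highest, and the AdGFP range lay inside the AdNAMPT range. Its log2 fold change was 0.00 with a 95% interval of -0.24 to 0.24 (limma adjusted p 0.995), so differences of more than 1.18-fold in either direction lay outside the interval. G0s2 was at 107, 161, 261 and 192 CPM in AdGFP mice 1 to 4 and at 123, 232, 586 and 179 CPM in AdNAMPT mice 1 to 4. AdNAMPT mouse 3 stood at more than 2 times the level of any other mouse, and the other 3 AdNAMPT mice lay within the AdGFP range. The estimate for G0s2 was 0.46 with a 95% interval of -0.36 to 1.28 (limma adjusted p 0.737).

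The ratio of inhibitor to lipase, G0s2 RPKM over Pnpla2 RPKM, was computed after the values were seen. It was 12.4, 16.4, 27.0 and 22.2 in AdGFP mice 1 to 4 and 9.54, 25.6, 53.2 and 22.1 in AdNAMPT mice 1 to 4. Every liver therefore held more G0s2 than Pnpla2 transcript per length, by 9.54-fold to 53.2-fold. The group means of 19.5 ± 6.42 and 27.6 ± 18.4 (SD, 4 mice each) gave a two-sided exact permutation p of 0.657 on the log2 ratio, where 70 assignments allow a smallest p of 0.0286.

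Hsd17b13 (ENSMUSG00000034528, chromosome 5, 103955440 to 103977410) was at 229.8, 313, 273 and 264 CPM in AdGFP mice 1 to 4 and at 304, 335, 355 and 367 CPM in AdNAMPT mice 1 to 4. The AdNAMPT mice lay above the AdGFP mice except that AdGFP mouse 2 exceeded AdNAMPT mouse 1. Means were 270.2 ± 34.3 and 340.1 ± 27.3 CPM (SD, 4 mice each), a fitted ratio of 1.22 with a 95% interval of 1.04 to 1.43. The log2 fold change of 0.28 (SE 0.10) had an unadjusted limma p of 0.0189 and an adjusted p of 0.445. It stayed positive in all 18 alternative fits, between 0.20 and 0.37, and passed the adjusted threshold in 0 of them.

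**Figure D2:**
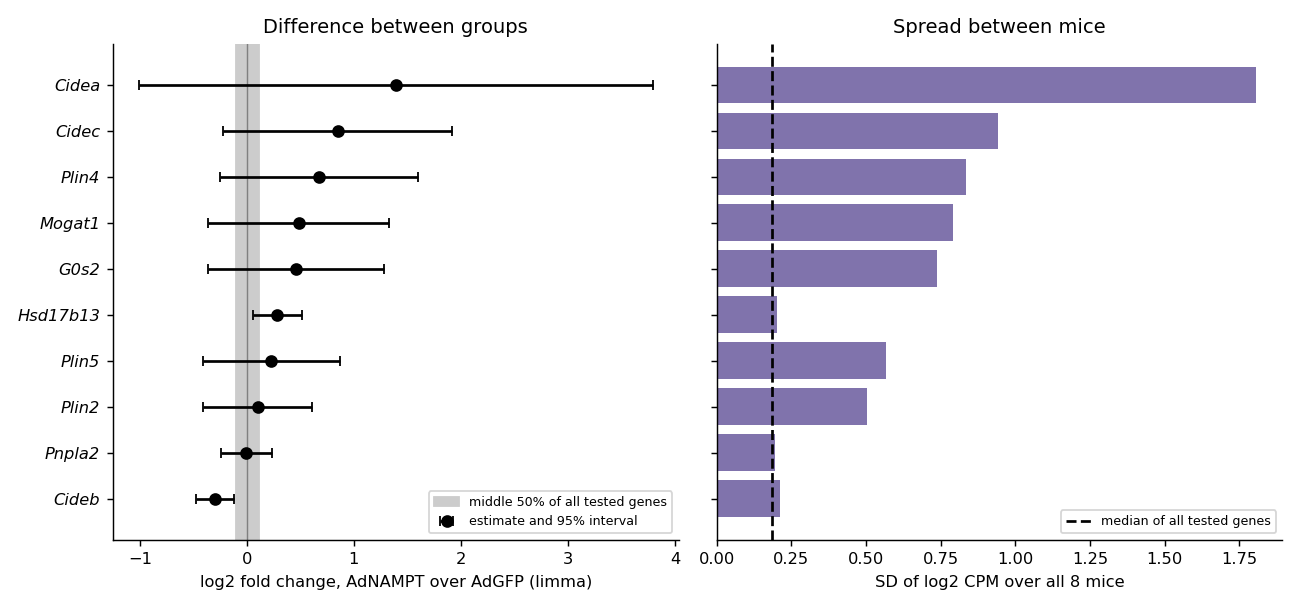
Left, log2 fold change of each lipid droplet gene, AdNAMPT over AdGFP, with its 95% interval (horizontal axis, limma) and the middle 50% of all tested genes in grey. Right, SD of log2 CPM over the 8 mice (horizontal axis), with the median of all tested genes dashed; the intervals of 8 genes cross 0, and 7 genes spread far beyond the dashed line.

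Most of the lipid droplet genes varied between mice far more than the median tested gene. The SD of log2 CPM over the 8 mice had a median of 0.185 over all tested genes, and 7 of the 10 lipid droplet genes were above the 90th percentile. Cidea had an SD of 1.80, Cidec 0.942, Plin4 0.836, Mogat1 0.793, G0s2 0.737, Plin5 0.566 and Plin2 0.502. The other 3, Cideb (0.211), Hsd17b13 (0.203) and Pnpla2 (0.196), were close to the median gene. The highest mouse exceeded the lowest by 6.62-fold for Cidec and by 1.46-fold for Cideb. The reference genes were not matched for level, so counting error may add to the SD of genes with few reads. Cidea was counted with 0 to 77 reads, Mogat1 with 17 to 158, Plin4 with 60 to 328 and Cidec with 39 to 351.

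The order of the mice was not the same for all genes. AdNAMPT mouse 1 had the highest level of 3 genes (Plin4, Plin5 and Pnpla2) and the lowest of 4 (Cidea, Cideb, Plin2 and Mogat1). AdNAMPT mouse 3 had the highest level of 5 genes and the lowest of 0. AdGFP mouse 1 had the highest of 0 and the lowest of 4 (Cidec, Plin4, G0s2 and Hsd17b13).

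**Figure D3:**
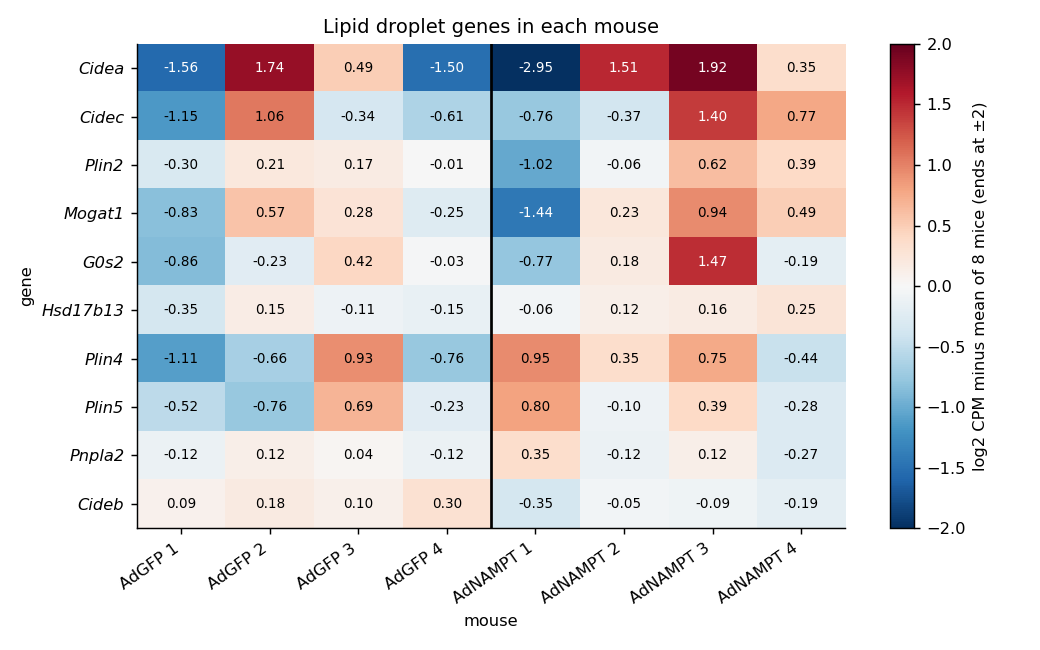
Deviation of each lipid droplet gene (rows) from its own mean over the 8 mice in each mouse (columns), as log2 CPM, with red above and blue below the mean and the value printed in each cell. Cidea, Cidec, Plin2 and Mogat1 are all highest in AdNAMPT mouse 3 and all below their mean in AdGFP mouse 1 and AdNAMPT mouse 1. They differ in other mice, as in AdNAMPT mouse 2 (1.51 for Cidea, -0.37 for Cidec). Plin4 and Plin5 are highest in AdNAMPT mouse 1, AdGFP mouse 3 and AdNAMPT mouse 3. AdNAMPT mouse 1 is blue in the first set and red in the second.

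Levels were therefore compared between genes across the 8 mice, in 45 pairs. Plin2 and Mogat1 moved together most closely, with Pearson r = 0.96 (exact permutation p 0.000298, adjusted over the pairs 0.0134) and Spearman rho = 0.95 (exact permutation p 0.00114, adjusted 0.0257). Leaving out the 2 mice farthest from the median of Plin2, r was 0.88 (exact permutation p 0.0181). Cidea and Mogat1 had r = 0.94 (exact permutation p 0.000794, adjusted 0.0179) and rho = 0.91 (exact permutation p 0.00456, adjusted 0.0513), and r = 0.83 without the 2 farthest mice (exact permutation p 0.0361). Plin4 and Plin5 had r = 0.91 (exact permutation p 0.00164, adjusted 0.0246) and rho = 0.88 (exact permutation p 0.00724, adjusted 0.0543), and r = 0.89 without the 2 farthest mice (exact permutation p 0.0111). These were the 3 pairs that passed an adjusted p of 0.05 for r. That count rested on single mice: it was 0 without AdGFP mouse 1 or AdNAMPT mouse 3, 1 without AdGFP mouse 2, 3 or 4, and 7 without AdNAMPT mouse 1. By rho, Cidec also passed with Mogat1 (rho = 0.98, exact permutation p 0.000397, adjusted 0.0179; r = 0.83, adjusted 0.0897) and with Plin2 (rho = 0.93, exact permutation p 0.00223, adjusted 0.0335; r = 0.75, adjusted 0.131).

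Within groups, with each gene centred on its group mean, r was 0.96 for Plin2 and Mogat1, 0.94 for Cidea and Mogat1 and 0.90 for Plin4 and Plin5. The adjusted exact permutation p of each was then 0.0781. The smallest unadjusted p that permuting within groups can give is 0.00174, which Plin2 and Mogat1 reached. All 6 pairs among Cidea, Cidec, Plin2 and Mogat1 had r between 0.75 and 0.96 over the 8 mice, with adjusted exact permutation p from 0.0134 to 0.151. Without the 2 farthest mice, r was between 0.43 (Cidea with Plin2) and 0.88 (Plin2 with Mogat1). In contrast, the 8 pairs that join one of these with Plin4 or Plin5 had r between -0.28 and 0.11, with an adjusted exact permutation p of at least 0.815. Without the 2 farthest mice, these 8 had r between -0.08 (Cidec with Plin5) and 0.45 (Cidea with Plin4). AdNAMPT mouse 1 was among the mice left out for each of these pairs with Cidea, Plin2 or Mogat1. Mogat1 then had r = 0.39 with Plin4 and r = 0.44 with Plin5, so the contrast was smaller without those mice. The sets compared here were chosen after the correlations were seen, so the contrast is a description and was not tested. Pairs outside the sets were as close, with r = 0.83 for Cidec and Hsd17b13 and r = 0.77 for G0s2 and Mogat1. G0s2 also had r = 0.47 with Plin4 and r = 0.31 with Plin5. Cideb had r between -0.55 and 0.34 with the other 9 genes, and its lowest unadjusted exact permutation p was 0.156. The neighbouring genes Plin4 and Plin5 tracked each other across mice. Against Plin2 and the rest of its set, r was at most 0.11 over all 8 mice and at most 0.45 without the 2 farthest.

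**Figure D4:**
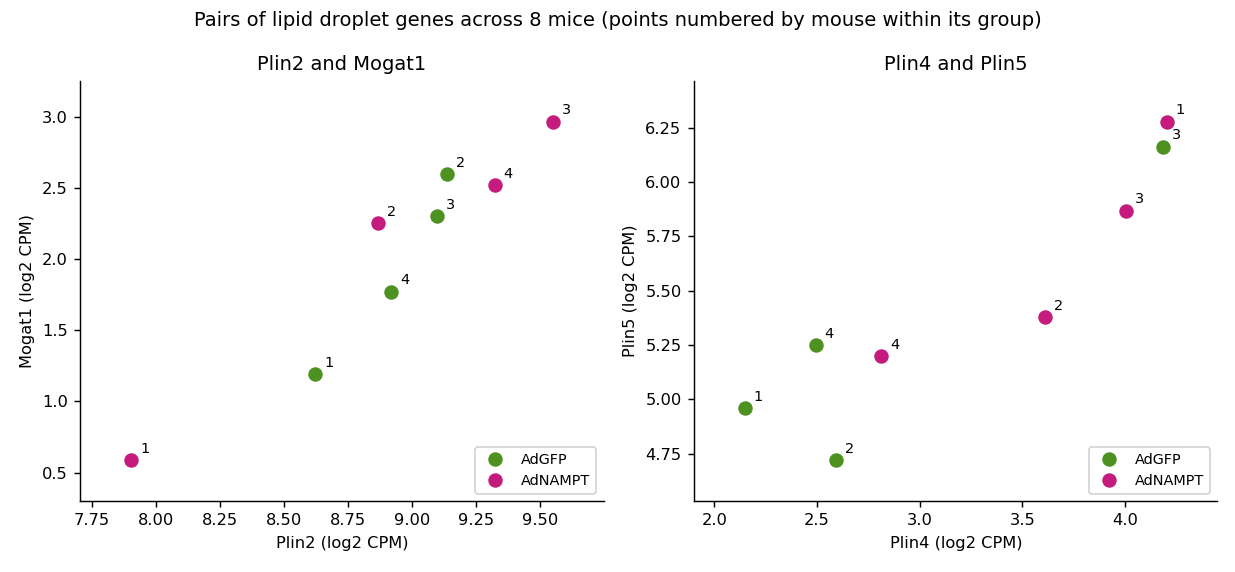
Left, Mogat1 against Plin2, and right, Plin5 against Plin4, each as log2 CPM in the 8 mice, with points numbered by mouse within its group (green, AdGFP; magenta, AdNAMPT). Mice of both groups lie along each trend; AdNAMPT mouse 1 is lowest in the left panel and highest in the right.

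Sequencing depth moved with some of these genes. Pearson r with the total counts of a library was 0.86 for Plin2 (exact permutation p 0.00680, adjusted over 10 relations 0.0666), with rho = 0.74 (exact permutation p 0.0458, adjusted 0.230) and r = 0.57 without the 2 farthest mice. It was 0.80 for G0s2 and 0.79 for Mogat1 (exact permutation p 0.0200 and 0.0179, adjusted 0.0666 each), and 0.19 for Plin4 and 0.09 for Plin5 (exact permutation p 0.653 and 0.840). With all libraries thinned to the smallest, chosen after the data were seen, r was 0.95 for Plin2 and Mogat1, 0.93 for Cidea and Mogat1 and 0.92 for Plin4 and Plin5. Thinning keeps the proportions within each library and so leaves the relation of these levels with depth in place, and the part of depth in the 3 relations was not tested.

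Transcription factors of hepatic fat storage were set beside the lipid droplet genes, a comparison added after the values were seen. Of 160 relations between 10 genes and 16 factors, 27 had an unadjusted exact permutation p under 0.05 and 0 passed after adjustment. The lowest p belonged to Mogat1 with Srebf1, the lipogenic factor activated by insulin (r = 0.88, exact permutation p 0.00231, adjusted 0.0968; rho = 0.83, exact permutation p 0.0154, adjusted 0.249), and this r was 0.69 without the 2 farthest mice. Plin2 went against Hnf4a, a factor that maintains the hepatocyte state (r = -0.93, exact permutation p 0.00300, adjusted 0.0968; rho = -0.81, exact permutation p 0.0218, adjusted 0.249), and this r was -0.63 without the 2 farthest mice. Hsd17b13 went against Nr0b2, which encodes the repressor SHP (r = -0.89, exact permutation p 0.00566, adjusted 0.116; rho = -0.91, exact permutation p 0.00456, adjusted 0.249), and this r was -0.94 without the 2 farthest mice. Cidec with Nr0b2 (r = -0.89) and Mogat1 with Hnf4a (r = -0.875) or Pparg (r = 0.88) had lower p than that relation. The adjusted exact permutation p was 0.0968 for each. Pparg had r of 0.835 to 0.88 with Cidea, Cidec, Plin2 and Mogat1, and of 0.64 to 0.75 without the 2 farthest mice.

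For the 3 most variable genes, the tested genes with the most similar pattern over the 8 mice were also listed, as a description among 12210 genes. Cidea was closest to Ppa2 (r = 0.98, 52.8 to 63.1 CPM), Pcdh17 (r = 0.98, 1.83 to 5.99 CPM) and Cfap36 (r = 0.97, 15.9 to 22.3 CPM). Cidec was closest to Hlcs (r = 0.98, 9.705 to 19.3 CPM) and Abhd17a (r = 0.98, 51.3 to 93.1 CPM). Next was Me1, the cytosolic malic enzyme that supplies NADPH for fatty acid synthesis (r = 0.97, 40.6 to 221 CPM). Plin4 was closest to Smim26 (r = 0.99, 17.8 to 22.6 CPM), Fam220a (r = 0.97, 6.425 to 9.08 CPM) and Lipg, endothelial lipase (r = 0.95, 25.8 to 58.0 CPM). With 8 mice, 47 genes had r over 0.9 with Cidea, 47 with Cidec and 23 with Plin4.

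Related gene lists placed these values in the wider droplet pathway, and limma called 0 genes of any list at an adjusted p of 0.05. Genes are named in order of their moderated t, not of the size of the estimate. Of 18 tested genes for other droplet proteins, 8 were above 0 and 10 below, with a median log2 fold change of -0.07. Mettl7a1 had an estimate of -0.21 (unadjusted limma p 0.0124). Plin3, the perilipin that exchanges with the cytosol, had one of 0.25 (unadjusted limma p 0.0305) and Faf2 one of -0.16. Pnpla3, a droplet enzyme named after its value was seen, had the largest estimate of these lists, 2.0 with SE 1.14 (limma adjusted p 0.627), on levels from 0.250 CPM in AdNAMPT mouse 1 to 24.8 CPM in AdNAMPT mouse 3. Those are also the lowest and the highest mouse for Plin2 and Mogat1.

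Droplet biogenesis genes at the endoplasmic reticulum were above 0 for 9 of 11, with a median of 0.02, with the largest moderated t for Reep5 (0.33, unadjusted limma p 0.0256), Clstn3 (0.26) and Fitm2 (0.11). Triglyceride synthesis genes, Mogat1 among them, were above 0 for 11 of 17, with a median of 0.09. Lpin3, a phosphatidate phosphatase, had the largest moderated t among them, with an estimate of 0.30, from 4.77 ± 0.367 to 6.38 ± 0.210 CPM (SD, 4 mice each) with no overlap of the groups, and its limma adjusted p was 0.453. Agpat1 (0.21) and Agpat2 (0.23) followed. Breakdown genes, Pnpla2 and G0s2 among them, were above 0 for 7 of 19, with a median of -0.06. Lipc, hepatic lipase, had an estimate of -0.40 (limma adjusted p 0.357), Faf2 one of -0.16 and Lipe, hormone-sensitive lipase, one of -0.26. Fatty acid uptake genes were above 0 for 9 of 16, with a median of 0.05, led by Slc27a4 (0.25), Fabp4 (-0.29) and Fabp5 (0.66). The transcription factors were above 0 for 7 of 16, with a median of -0.02, led by Nr0b2 (-0.33), Ppargc1a (-0.27) and Nr1i3 (-0.26). The 10 lipid droplet genes had the highest median of these lists, a ranking that was not tested. Their median was 0.28 without sample weights and 0.17 without AdNAMPT mouse 3, and several of the genes varied together across mice.

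**Figure D5:**
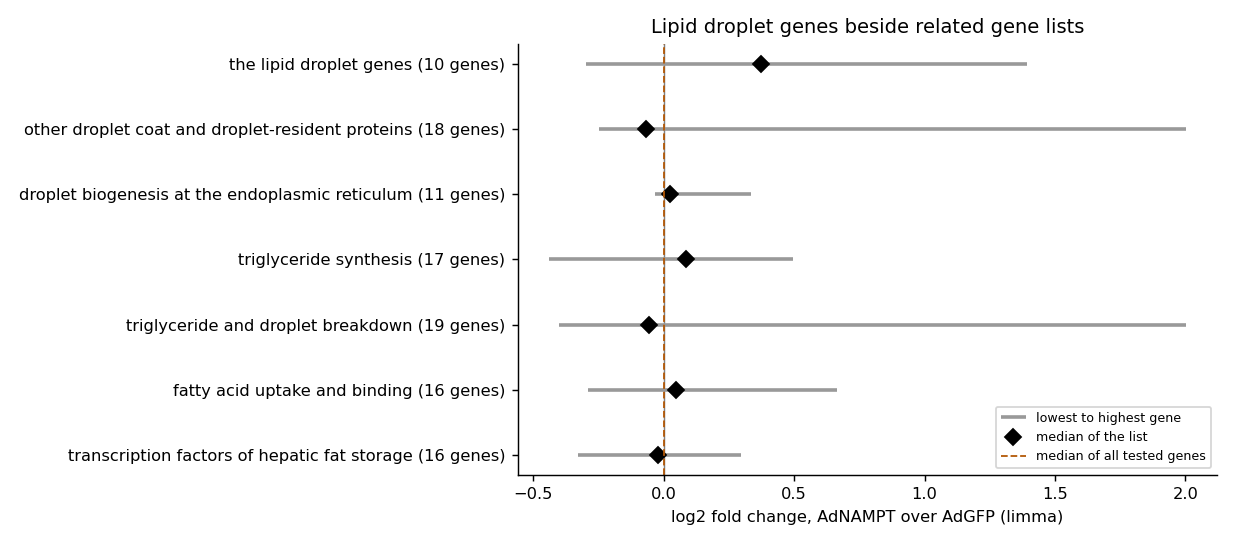
Log2 fold change, AdNAMPT over AdGFP (horizontal axis, limma), for the lipid droplet genes and 6 related lists (rows, with the number of tested genes), as the median (diamond) and the span from the lowest to the highest gene (grey line). The median of the lipid droplet genes is 0.37 and those of the other lists lie between -0.07 and 0.09.

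Several of these genes are also abundant in fat, so adipocyte markers were read in the same libraries. Adipoq was at most 0.333 CPM and Plin1, the perilipin of the adipocyte, at most 0.167 CPM. Both maxima were in AdNAMPT mouse 1, where Cidea had 0 reads. Cfd (adipsin) was at most 0.918 CPM, in AdGFP mouse 2, where Adipoq was at 0 CPM and Cidea at 3.04 CPM. Lep was at most 0.201 CPM, on few reads. It was at most 0.0597 CPM in AdGFP (mouse 3) and at least 0.0683 CPM in AdNAMPT (mouse 2). Both values were under the level of 3 reads in those libraries, 0.179 and 0.205 CPM. Lep did not pass the filter and its order was not tested, and 4.79% of all tested genes had groups without overlap. Ucp1, the uncoupling protein of brown fat, had no read in any of the 8 libraries. In AdNAMPT mouse 3, the highest for Cidea and Cidec, Plin1 was at 0.101 CPM beside 3.87 CPM of Cidea and 17.7 CPM of Cidec. Retn, the adipokine resistin, was at 0.205, 1.69, 0.538 and 0.219 CPM in AdGFP mice 1 to 4 and at 0.0833, 1.09, 0.905 and 1.06 CPM in AdNAMPT mice 1 to 4. As for Cidea, AdGFP mouse 2 was the highest of its group, AdNAMPT mouse 1 the lowest of all, and AdGFP mice 1 and 4 were low. The part of adipocyte RNA in the Cidea values was not tested. Of the 10 adipocyte markers, 3 passed the filter (Lipe, Retn and Nnat), and the summed level of the list was 14.8 to 18.0 CPM in AdGFP and 14.8 to 18.7 CPM in AdNAMPT, most of it Lipe.

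Other cell markers gave 0 calls at an adjusted limma p of 0.05 and are named in order of moderated t. The macrophage marker Vsig4 passed with edgeR's exact test (adjusted p 0.0436) and with DESeq2 (adjusted p 0.0393). Macrophage markers were below 0 for 6 of 8 genes, 3 of them at an unadjusted limma p under 0.05 (Vsig4 -0.51, Timd4 -0.83 and Clec4f -0.45), with summed levels of 253 to 311 CPM in AdGFP and 191 to 316 CPM in AdNAMPT. Their part in the values of the lipid droplet genes was not tested. Hepatocyte markers were below 0 for 5 of 8, led by Tat (-0.56), Cps1 (-0.27) and Fgb (-0.21), and stellate cell markers for 6 of 8, led by Rgs5 (-0.40), Colec11 (-0.14) and Reln (-0.09). Endothelial markers were below 0 for 4 of 7, led by Gpr182 (-0.21), Lyve1 (0.34) and Pecam1 (0.13). Cholangiocyte markers were above 0 for 3 of 5, led by Sox9 (0.81), Krt19 (-0.37) and Krt7 (0.10). Brown adipocyte markers were above 0 for 1 of the 3 tested, led by Ppargc1a (-0.27), Elovl3 (0.53) and Cox7a1 (-0.02), and the single tested lymphocyte marker, Ptprc, was at -0.09.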

How the data were processed

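Liver RNA-seq of 4 AdGFP and 4 AdNAMPT db/db mice was read from tables of 1 library each. The authors aligned single reads of 50 bases to GRCm38 with STAR (2.4.0b in the submitters' processing notes) and assigned those with a single unambiguous gene by featureCounts (1.4.5). The deposited counts are whole numbers of reads. The deposited CPM are counts scaled to the library total and the deposited RPKM are those CPM per kilobase of exon; both were recomputed for all 41388 features within a relative tolerance of 1e-06. The labels name Ribo-Zero and the study's methods poly-A selection; strand is not given in the sources used here. Symbols came from GENCODE M21 (40340 features matched).

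As in the study's methods, 355 ribosomal RNA features and genes not over 1 CPM in at least 3 libraries were left out, counts were TMM-scaled, and limma's voomWithQualityWeights was fitted with group as the only term. P-values were Benjamini-Hochberg adjusted over 12270 genes, with 0.05 as the threshold, and log2 fold changes are AdNAMPT over AdGFP. Co-variation used log2 TMM-scaled CPM (prior count 2) with exact, two-sided permutation of all 40320 pairings of mice, adjusted over 45 pairs. A fit without 1 library required 1 library fewer over 1 CPM. In a library, 3 counts correspond to 0.151 to 0.250 CPM, which covers counting error only. Each library was taken as 1 mouse from its numbered title; otherwise p-values measure only the spread between these samples.

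The genes and lists were chosen with earlier results of these data known. Named were the 10 genes, the 3 genes of each of 6 pathway and 8 marker lists with the largest moderated t, and the 3 genes nearest in pattern to the 3 most variable lipid droplet genes; Pnpla3, Xist and the G0s2 to Pnpla2 ratio were added after their values were seen. Alternatives were edgeR's quasi-likelihood and exact tests, the DESeq2 Wald test, voom without weights, DESeq2 size factors, library size only, no filter, a mean count of at least 10, a replicate block, each mouse left out, a prior count of 0.5, deviations from group means and, added later, thinned counts. The fits were tested on simulated data. Fits ran in limma 3.58.1, edgeR 4.0.16 and DESeq2 1.42.0 under R 4.3.3, and the rest in numpy 2.4.6, pandas 2.3.3 and matplotlib 3.10.9 under Python 3.11.15.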

Additional observations from a re-analysis of the deposited data

Results flagged for a closer look

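Values of single mice were compared with the rest of their group by Dixon's test at the 95% level, over 96 groups of 4 mice, where chance gives about 4.8 distant values; 8 were found. The lipid droplet genes made up 20 of the 96 groups and held 1 of the 8 values, a count about as large as chance gives. Plin4 stood at 17.3 CPM in AdGFP mouse 3, where the other AdGFP mice lay between 4.10 and 5.44 CPM. In the same mouse Plin5 was at 68.4 CPM, also the highest of AdGFP. No other lipid droplet gene had a distant value in either group.

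The other 7 values belonged to genes of the related lists. In AdGFP mouse 2, Mettl7a1 was low at 257 CPM, Nr1i3 was low at 100.3 CPM and Reep5 was high at 16.7 CPM. Colec11 was high at 50.5 CPM in AdGFP mouse 3. Among the AdNAMPT mice, Elovl3 was high at 112 CPM in mouse 1, Reep5 was high at 17.8 CPM in mouse 2 and Nnat was low at 0.884 CPM in mouse 4. AdNAMPT mouse 1 is also the mouse with the highest Plin4, Plin5 and Pnpla2.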

How the results depend on the processing

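Of the 10 lipid droplet genes, 0 passed the adjusted threshold in any of 18 alternative fits, and 8 kept the sign of their estimate in all of them. Plin2 turned to -0.054 without sample weights and ranged from -0.12 to 0.335 with each mouse left out. Pnpla2 turned from 0.00 to 0.053 with edgeR's quasi-likelihood test, 0.053 with its exact test, 0.055 with DESeq2, 0.033 without sample weights, 0.08 with library size only, 0.008 without a filter, 0.012 with the replicate block and 0.016 with thinned counts, and ranged from -0.051 to 0.05 with each mouse left out. Under the same 8 settings, in that order, Cox7a1 turned to 0.072, 0.063, 0.074, 0.04, 0.07, 0.01, 0.048 and 0.053, and it ranged from -0.086 to 0.062 with each mouse left out. Krt7 turned to -0.061 with thinned counts and ranged from -0.104 to 0.25, Fitm2 from -0.079 to 0.241, Pecam1 from -0.014 to 0.267, Ptprc from -0.315 to 0.102 and Nampt from -0.079 to 0.266, with each mouse left out. The log2 difference of the G0s2 to Pnpla2 ratio was 0.31 and ranged from -0.093 to 0.733. The count of all called genes, 34, was 66 with edgeR's exact test and 75 with DESeq2, and 28 to 38 with each mouse left out. Vsig4 passed the adjusted threshold with edgeR's exact test and DESeq2. The cause of these changes was not tested.

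Replicate numbers were not taken to mark shared animals. Deviations of same-numbered mice correlated at 0.23, -0.05, 0.21 and 0.01, where differently numbered mice correlated at -0.30 to 0.24. Whether same-numbered mice shared a batch was not tested. With a replicate block, 41 genes were called and 0 lipid droplet genes. The 3 pairs of genes at the adjusted threshold became 0 for deviations from group means. Permuting within groups gives a smallest exact permutation p of 0.00174, at which 1 pair alone cannot pass after adjustment over 45 pairs. Plin2 and Mogat1 reached that p, with r = 0.96. With each mouse left out the count was 0 to 7. It was 7 without AdNAMPT mouse 1, 0 without AdGFP mouse 1 or AdNAMPT mouse 3, and 1 without AdGFP mouse 2, 3 or 4. Over all these settings r stayed at 0.88 to 0.97 for the pairs named. Library size only moved the median of all genes to 0.09 and the lipid droplet median to 0.45. Depth limited Cidea, counted with 0 to 77 reads, and Mogat1, with 17 to 158. With 4 mice in each group, the 95% interval of 8 of the genes included 0.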
